A study of Mus musculus with 6 samples.

Results

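The unfolded protein response is the programme by which a cell adjusts to misfolded protein in the endoplasmic reticulum. The sensors and transcription factors that run it were followed here in calf muscle of mice that overexpress integrin alpha7, the partner of integrin beta1 in a laminin receptor of muscle fibres. They were 10 genes chosen by name and sorted by arm: Ern1 and Xbp1 in the IRE1 arm, Atf6 in the ATF6 arm, and Eif2ak3, Atf4, Ddit3, Trib3, Ppp1r15a, Atf5 and Chac1 in the PERK arm. Among 18193 genes named on the array by a probe set with a single gene symbol, these 10 had 25 probe sets. Of those, 20 lay above the filter on dim signal, a mean below the 40th percentile of all probe sets, and 5 lay under it, and each of the 10 genes kept at least 1 probe set.

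The transgenic group carried the integrin alpha7 transgene on the SJ6/C57BL6 background, and the wild type group was of the same background. All animals were non-fasted females of 5 weeks, and the tissue was gastrocnemius with soleus. Each genotype had 3 arrays, each hybridised with an equal-parts pool of RNA from 6 animals, so 18 animals stood behind each genotype and differences between single animals were averaged within a pool. Which promoter drives the transgene, and in how many lines, was not stated in the labels. The titles of the wild type arrays carry the word intronic without explanation.

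Each arm starts with a protein in the membrane of the endoplasmic reticulum. IRE1, encoded by Ern1, is a kinase and ribonuclease that removes a short intron from Xbp1 mRNA, so that the active transcription factor XBP1 is made. ATF6 travels to the Golgi, where proteases release its cytoplasmic part as a transcription factor for chaperone genes. PERK, encoded by Eif2ak3, phosphorylates the initiation factor eIF2 alpha, which lowers translation in general but raises translation of the transcription factor ATF4. Much of this control acts on protein or on splicing, which a probe set signal does not show. In skeletal muscle, a tissue rich in sarcoplasmic reticulum, the response is known to be engaged by exercise and by muscle disease.

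The transgene was evident on every array labelled transgenic. Itga7 gave 2238 ± 228 in transgenic and 292 ± 32.7 in wild type muscle (SD, n = 3 each). Muscle fibre markers were present in both groups, and the 8 listed, among them Acta1 and Ckm, summed to 134588 to 140182 on the transgenic and 145615 to 148694 on the wild type arrays. All arrays were scanned on 1 day after hybridisation in 2 rounds, round 1 with replicates 1 and 2 of each genotype and round 2 with replicate 3 of each. Pairs of arrays correlated at 0.971 to 0.981 over the probe sets kept.

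Promoter windows were read for these genes because the response is defined by short DNA elements to which its factors bind. The windows, from RefSeq on build GRCm38.p6, run from 250 bases before to 50 bases after the annotated start, and 9 of the 10 genes matched (all but Atf6), with 2 windows for Atf5. Both strands were searched for 3 elements. The endoplasmic reticulum stress element, bound by ATF6, was taken as CCAAT, any 9 bases and CCACG, and lay in 0.119% of 32851 windows. The unfolded protein response element, taken as TGACGTGG and linked to XBP1 and ATF6, lay in 0.676%. The C/EBP-ATF response element, bound by ATF4 with its partners and taken as TGATGNAA, lay in 3.97%. None of these motifs contains another. Of the 9 genes, 0 had either of the first 2 elements in this window, and 2, Chac1 and Trib3, had the C/EBP-ATF element. Of the 7 target genes called as higher in transgenic muscle (adjusted p under 0.05), 6 had a window, and 4 of these (Hspa5, Hsp90b1, Calr and Pdia6) held the stress element. Another 1, Herpud1, held the C/EBP-ATF element. These genes were listed as known targets with earlier results of these data known, so the counts are no test of the elements. Windows of listed targets that were not called are not given here. The motif letters describe the windows and are no evidence of binding. Printed up to base 30 after the start are Xbp1 (the member with the smallest p), the 2 members with the C/EBP-ATF element, and Hspa5 as a called target with the stress element. Each runs 5′ to 3′ in the direction of the gene, with capitals marking the motif found.
Xbp1, chr11:5520391-5520670, plus strand: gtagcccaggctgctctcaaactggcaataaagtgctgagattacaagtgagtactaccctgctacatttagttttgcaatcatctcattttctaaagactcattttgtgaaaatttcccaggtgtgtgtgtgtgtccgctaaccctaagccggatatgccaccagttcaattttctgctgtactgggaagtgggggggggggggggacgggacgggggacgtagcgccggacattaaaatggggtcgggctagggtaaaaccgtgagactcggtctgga
Chac1, chr2:119350992-119351271, plus strand: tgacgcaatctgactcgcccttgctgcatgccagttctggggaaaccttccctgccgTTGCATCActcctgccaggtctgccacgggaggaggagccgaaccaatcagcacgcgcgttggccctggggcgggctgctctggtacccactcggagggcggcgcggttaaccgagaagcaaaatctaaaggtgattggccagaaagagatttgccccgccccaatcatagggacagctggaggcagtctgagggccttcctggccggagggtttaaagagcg
Trib3, chr2:152344031-152344310, minus strand: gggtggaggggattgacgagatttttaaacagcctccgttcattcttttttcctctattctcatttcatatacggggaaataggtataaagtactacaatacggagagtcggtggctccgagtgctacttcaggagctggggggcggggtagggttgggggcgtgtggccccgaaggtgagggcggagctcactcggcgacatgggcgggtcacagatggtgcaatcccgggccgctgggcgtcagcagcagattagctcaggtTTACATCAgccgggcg
Hspa5, chr2:34771840-34772119, plus strand: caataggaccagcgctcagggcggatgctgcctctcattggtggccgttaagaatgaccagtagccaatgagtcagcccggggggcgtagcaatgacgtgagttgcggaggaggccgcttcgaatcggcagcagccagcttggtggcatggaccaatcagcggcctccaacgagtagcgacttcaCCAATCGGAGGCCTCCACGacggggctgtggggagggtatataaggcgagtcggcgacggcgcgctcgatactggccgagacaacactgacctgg
The capitals begin 193 bases before the start in Chac1 and 65 before it in Hspa5. In Trib3 they begin at base 15 after the start, inside the transcript. The Xbp1 window has no capitals, since none of the 3 elements in these exact letters lies in it.

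None of the 20 kept probe sets of the 10 genes passed an adjusted p of 0.05. The test was the moderated one of limma on log2(signal + 16), with Benjamini-Hochberg adjustment over the 27022 probe sets whose mean exceeded the 40th percentile, a signal of about 21.7. Over all 27022 the share past this threshold was 0.122%, made up of 27 probe sets that were higher (0.0999%) and 6 that were lower (0.0222%). With no filter 0.0377% of 45037 probe sets passed, and again none of the 25. Before adjustment, 3 member probe sets had a p under 0.05, all higher and all of Xbp1, where 7.85% of all probe sets stood past that mark. All 3 transgenic arrays lay above all 3 wild type arrays for 4 of the 20, which were 3 of Xbp1 and 1 of Atf6, and 0 lay wholly below. Over all probe sets the arrays stood apart for 13.4%, upward for 5.85% and downward for 7.5%. A fold here is 2 to the power of the log2(signal + 16) difference, which understates the change of dim transcripts.

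**Figure D1:**
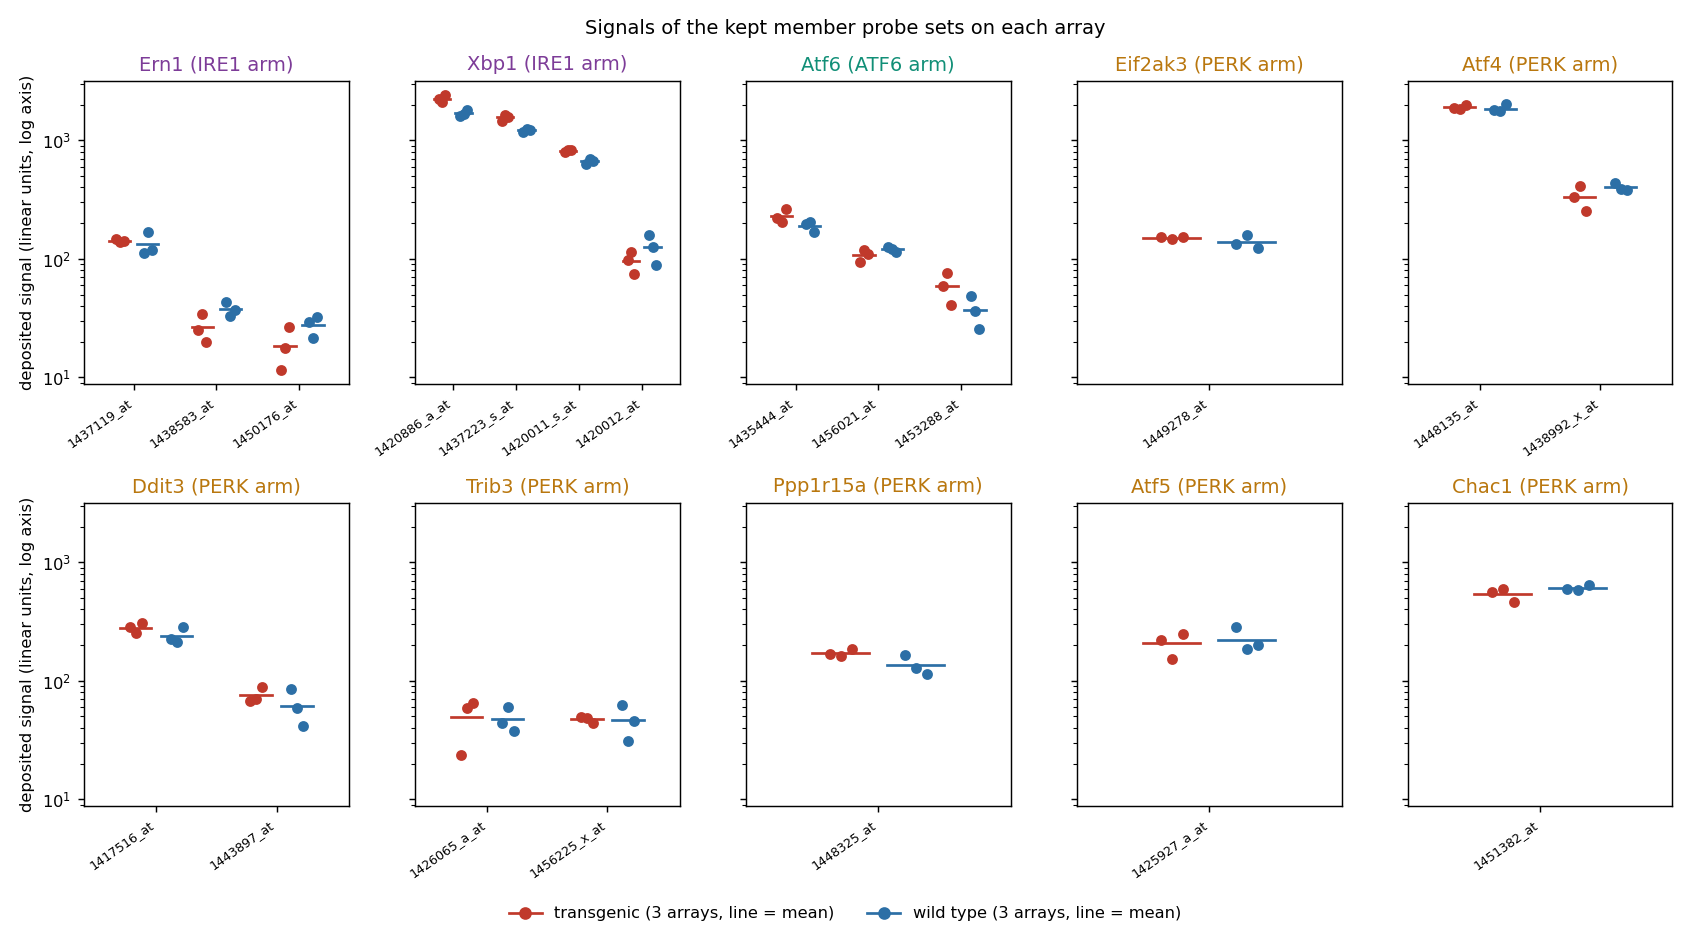
Deposited signal (linear units on a log axis) of the 20 kept probe sets of the 10 genes, 1 panel a gene, with transgenic arrays in red left of wild type arrays in blue, a point for each array and a line at the group mean. For the 3 brighter probe sets of Xbp1 and the brightest of Atf6 every red point is above every blue one; elsewhere the groups overlap.

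Xbp1, the transcription factor activated by IRE1, had the most separated values. On its brightest probe set, 1420886_a_at, the signals were 2211, 2084 and 2419 on the transgenic arrays, against 1599, 1655 and 1810 on the wild type arrays. The lowest transgenic array was thus above the highest wild type one. The means were 2238 ± 169 in transgenic and 1688 ± 109 in wild type muscle (SD, n = 3 each), a 1.32-fold difference. The log2 difference was 0.40 (95% interval 0.24 to 0.57). Its p was 0.000211 before adjustment and 0.0959 after it in limma, so it did not pass. It ranked 59 by p among 27022.

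A further pair of Xbp1 probe sets gave differences of like size. Signals on 1437223_s_at were 1460, 1645 and 1569 in transgenic muscle, against 1182, 1236 and 1214 in wild type muscle. This was 1.28-fold, with a log2 interval of 0.21 to 0.51 (limma, adjusted p = 0.116). Signals on 1420011_s_at were 789, 830 and 834 in transgenic muscle, against 634, 689 and 675 in wild type muscle, or 1.22-fold, with an adjusted p of 0.301 in limma. Again no transgenic array overlapped a wild type one. These probe sets measure the same transcripts on the same arrays and are not independent evidence.

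The dimmest Xbp1 probe set gave another picture. Signals on 1420012_at were 98.6, 114 and 75.0 in transgenic muscle, against 160, 125 and 89.5 in wild type muscle, so the groups overlapped. Its log2 difference was -0.32, with an interval of -0.76 to 0.12 (limma, adjusted p = 0.752). The platform annotation gives it the same source sequence as 1420011_s_at. Set against the brightest probe set array by array, the gap in log2 difference was 0.72, with p = 0.2 in a two-sided exact permutation test over the 6 arrays, whose smallest possible p is 0.1. No annotation used here tells whether any of the 4 probe sets separates spliced from unspliced Xbp1.

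Within each hybridisation round the brightest Xbp1 probe set differed by about as much, at 0.40 in round 1 and 0.42 in round 2, where each genotype had 1 array. With the round as a block its adjusted p in limma was 0.0292, past the threshold. The log2 difference lay between 0.35 and 0.45 over all 20 alternatives tried. The adjusted p ran from 0.00949 to 0.560 and was under 0.05 in 2 of them, the round as a block and the fluidics module as a random block. Each module held arrays of 1 genotype only, so module and genotype cannot be told apart there.

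**Figure D2:**
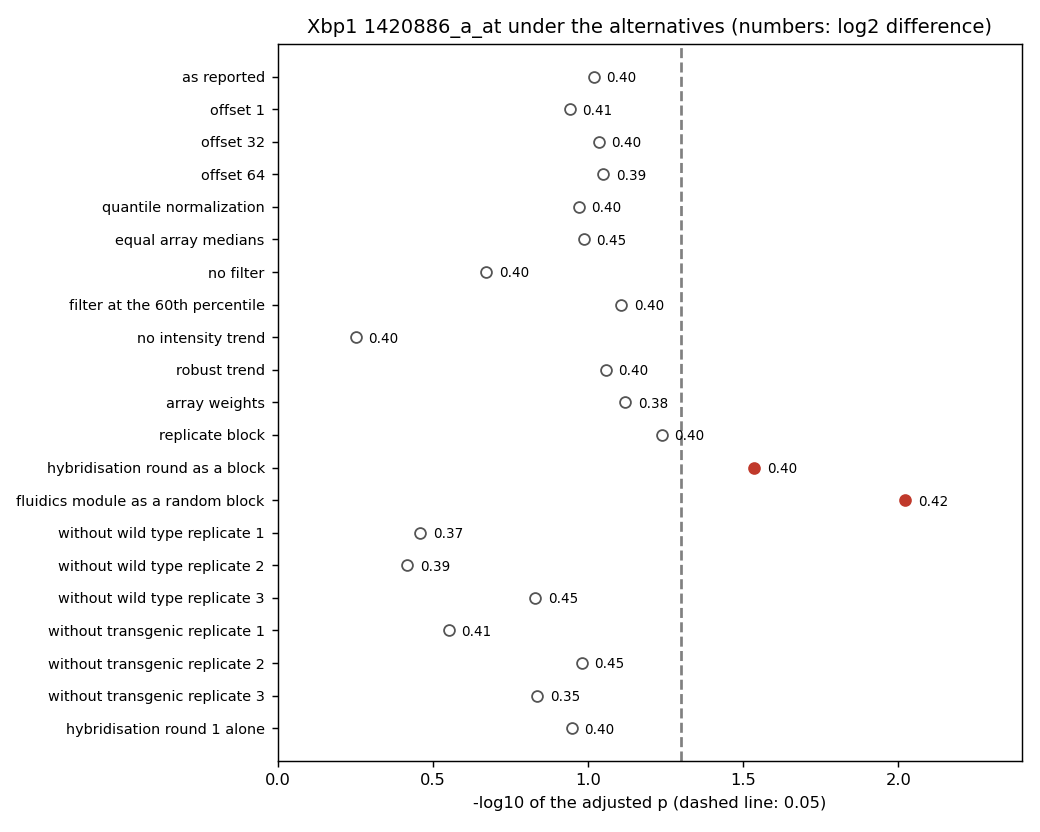
The brightest Xbp1 probe set under each processing alternative, with −log10 of the adjusted p on the horizontal axis, the log2 difference (transgenic minus wild type) printed beside each point, and a dashed line at 0.05. The differences stay between 0.35 and 0.45, while the adjusted p passes the line under 2 of the 20 alternatives.

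Xbp1 is abundant in antibody-secreting cells, so markers of B and plasma cells stand beside it. Of the 7 listed, 6 had a kept probe set, none was at 0, and their summed signal was 605 to 656 on the transgenic arrays and 536 to 583 on the wild type arrays. The sums did not overlap, but the arrays stood apart for 0 of the 6 markers, where 6.65% of all genes stood apart upward. Of the 6 markers 5 were higher in mean and none passed. Macrophage markers (5 of 5 kept, none at 0) summed to 2421 to 2740 on the transgenic and 2827 to 3090 on the wild type arrays. Endothelial markers (5 of 5 kept, none at 0) summed to 974 to 1088 on the transgenic and 1130 to 1267 on the wild type arrays. The macrophage, endothelial and muscle fibre sums did not overlap either, and all were lower in transgenic muscle. Transgenic arrays lay wholly below for 1 macrophage, 2 endothelial and 4 muscle fibre markers, where 7.59% of all genes lay wholly below. The part of these cells in the Xbp1 values was not tested, and in whole muscle RNA fewer cells of a type and less RNA per cell cannot be told apart.

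Ern1, the gene of the IRE1 sensor itself, was measured by 3 kept probe sets, which disagreed in sign. The brightest, 1437119_at, gave 147, 138 and 141 in transgenic muscle, against 112, 170 and 119 in wild type muscle, so the transgenic values lay inside the wild type range. Its log2 difference was 0.10 with an interval of -0.24 to 0.44. The dimmer 1438583_at gave 25.0, 34.1 and 20.0 in transgenic muscle, against 43.5, 33.1 and 37.2 in wild type muscle, a log2 difference of -0.36. For 1450176_at it was -0.35, at mean signals of 18.5 in transgenic and 27.7 in wild type muscle. The adjusted p in limma was 0.917, 0.763 and 0.805 for these 3. The other 2 Ern1 probe sets, at mean signals of 17.0 and 2.67, did not reach the filter and gave log2 differences of -0.24 and -0.05 when no filter was applied.

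Atf6 was measured by 3 kept probe sets. The brightest, 1435444_at, gave 219, 205 and 263 in transgenic muscle, against 195, 204 and 167 in wild type muscle. The lowest transgenic value, 204.7, barely cleared the highest wild type value, 204.3. The difference was 1.19-fold, with a log2 interval of -0.03 to 0.53 (limma, adjusted p = 0.680). It was 0.08 in hybridisation round 1 and 0.60 in round 2. The dimmest, 1453288_at, gave 58.8, 76.3 and 40.9 in transgenic muscle, against 48.7, 36.5 and 25.7 in wild type muscle, with overlap, or 1.40-fold at an adjusted p of 0.675. On 1456021_at the sign was opposite, at -0.15, from 107 ± 13.3 in transgenic and 121 ± 5.55 in wild type muscle (SD, n = 3 each).

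In the PERK arm, no probe set of the 7 genes stood apart between the genotypes. For Eif2ak3, the PERK sensor, 1449278_at gave 152, 148 and 152 in transgenic muscle, against 132, 159 and 123 in wild type muscle. The transgenic arrays again fell inside the wild type range, and the log2 difference was 0.12 with an interval of -0.17 to 0.40. The 2 other Eif2ak3 probe sets, with mean signals of 19.7 and 1.99, lay below the filter and gave 0.46 and 0.03 with no filter.

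Atf4, the central transcription factor of the arm, gave 1861, 1852 and 1987 on 1448135_at in transgenic muscle, against 1786, 1757 and 2006 in wild type muscle. Its log2 difference was 0.04 with an interval of -0.12 to 0.20, the narrowest among the brightest probe sets of the 10 genes. The dimmer 1438992_x_at gave 335, 414 and 254 in transgenic muscle, against 433, 390 and 383 in wild type muscle, or -0.28 on the log2 scale (limma, adjusted p = 0.698). A further Atf4 probe set, at a mean signal of 4.29, was below the filter and gave -0.09 with no filter.

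Ddit3 encodes CHOP, a factor induced by ATF4 that is linked to cell death under lasting stress. On 1417516_at it gave 283, 252 and 310 in transgenic muscle, against 225, 212 and 284 in wild type muscle, with overlap. The difference was 1.16-fold, with a log2 interval of -0.06 to 0.50 (limma, adjusted p = 0.732). On the dimmer 1443897_at the means were 75.8 ± 11.9 in transgenic and 61.5 ± 21.8 in wild type muscle (SD, n = 3 each), and the log2 difference of 0.27 was made up of -0.03 in round 1 and 0.88 in round 2.

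Ppp1r15a encodes GADD34, the phosphatase subunit that reverses the phosphorylation of eIF2 alpha. It gave 168, 160 and 184 in transgenic muscle, against 165, 128 and 113 in wild type muscle. A single wild type array reached into the transgenic range. The difference was 1.24-fold, with a log2 interval of -0.00 to 0.63 (limma, adjusted p = 0.642). It was the highest among the kept probe sets of the PERK arm. On the log2 scale it was 0.16 in round 1 and 0.63 in round 2.

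The remaining genes of the arm lie downstream of ATF4. Trib3, a pseudokinase that dampens ATF4 and AKT signalling, gave 23.6, 59.3 and 64.4 on 1426065_a_at in transgenic muscle, against 44.2, 60.3 and 37.7 in wild type muscle. A transgenic array was both the lowest and the highest of the 6, the log2 difference was -0.01, and its interval of -0.63 to 0.60 was the widest among the 20. The other Trib3 probe set, 1456225_x_at, gave 0.05. Atf5, a factor translated under stress much as ATF4 is, gave 221, 153 and 246 in transgenic muscle, against 284, 185 and 199 in wild type muscle, or -0.10 on the log2 scale. Both Trib3 and Atf5 had opposite signs in the rounds, at -0.31 in round 1 and 0.58 in round 2 for the brighter Trib3 probe set and -0.30 in round 1 and 0.29 in round 2 for Atf5. Chac1, an enzyme that degrades glutathione and is a sensitive target of ATF4 and CHOP, gave 563, 592 and 461 in transgenic muscle, against 600, 589 and 638 in wild type muscle. Its log2 difference was -0.18, with an interval of -0.40 to 0.04 (limma, adjusted p = 0.717), and it was -0.04 in round 1 and -0.45 in round 2. For Chac1 and Trib3, whose windows hold the C/EBP-ATF element, the log2 differences thus lay between -0.18 and 0.05.

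**Figure D3:**
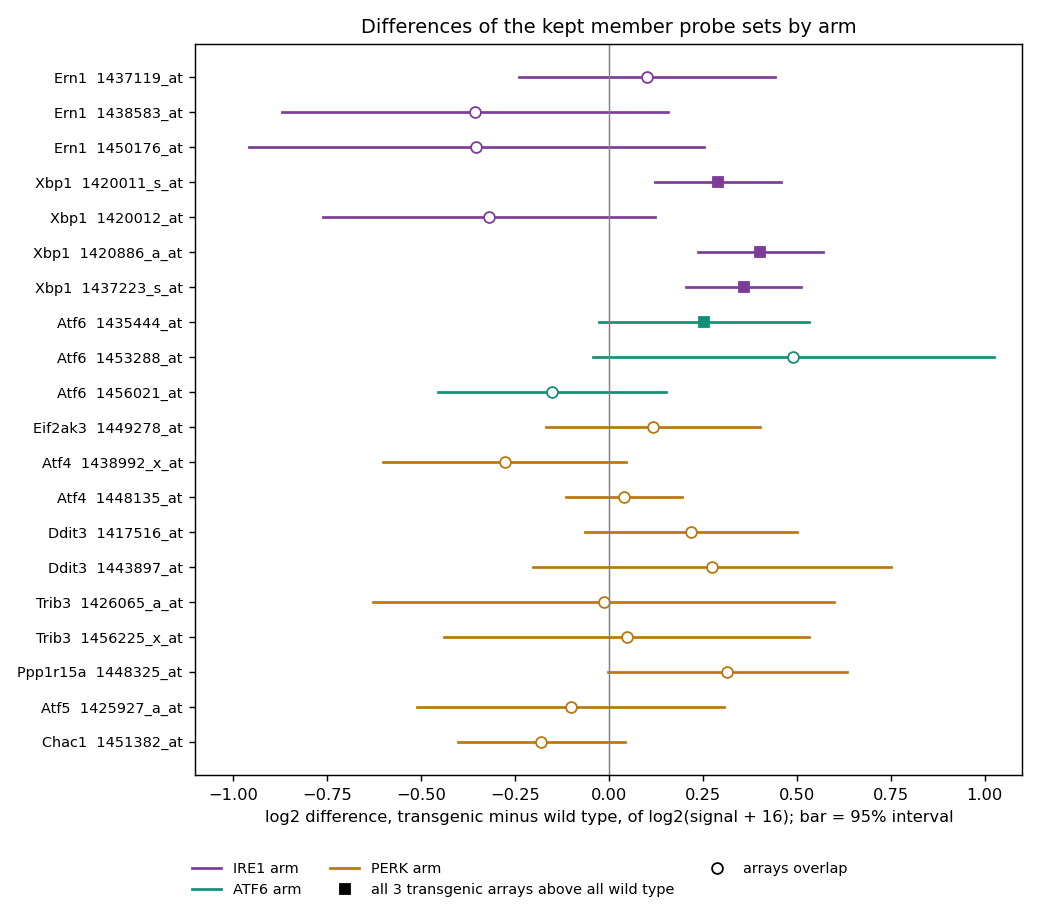
Log2 difference (transgenic minus wild type, horizontal axis) with its 95% interval for the 20 kept probe sets, coloured by arm; filled squares mark probe sets whose 3 transgenic arrays all lie above the 3 wild type arrays, open circles those that overlap. The intervals of 3 Xbp1 probe sets are the ones that do not reach 0.

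Side by side, the arms had 0 probe sets each that passed, where 0.122% of all kept probe sets did. Arrays stood apart upward for 3, 1 and 0, in the order IRE1, ATF6 and PERK, where 5.85% of all kept probe sets did. The 3 of the IRE1 arm were all of Xbp1 and are not independent of each other. The 1 of Atf6 cleared by 204.7 in transgenic against 204.3 in wild type muscle. Over kept probe sets the median log2 difference was 0.10 for 7 in the IRE1 arm, 0.25 for 3 in the ATF6 arm and 0.04 for 10 in the PERK arm, against -0.01 over all 27022. Differences were positive for 4, 2 and 6 of these. The sign differed between the hybridisation rounds for 5 of the 20, all in the PERK arm. Over the brightest probe set of each gene the PERK arm ran from -0.18 to 0.31 with 4 positive and 3 negative. The brightest Xbp1 probe set was then set array by array against the brightest of each other gene, a comparison chosen after its values were seen. Its log2 difference exceeded that of Atf4 by 0.36, Ern1 by 0.30, Ddit3 by 0.18, Atf5 by 0.50 and Chac1 by 0.58, with p = 0.1 each in the two-sided exact permutation test over 6 arrays. That is the smallest p the design allows, so none of these can pass. Against Atf6 the excess was 0.15 with p = 0.4, against Eif2ak3 0.29 with p = 0.2, against Ppp1r15a 0.09 with p = 0.7 and against Trib3 0.42 with p = 0.4 in the same exact test.

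The targets of the arms were described from lists of known members. Each gene was put in 1 list only, so the counts per arm depend on that assignment, and targets shared between arms were not separated. Values are those of the brightest kept probe set of a gene unless stated. Of 11 listed targets of ATF6, all 11 had a kept probe set and 6 were called as higher, where 0.124% of the 12942 genes were called higher and 0.0232% lower on their brightest probe set. Before adjustment 9 of the 11 had a p under 0.05 in the higher direction, where 3.91% of all genes did, and for 10 the transgenic arrays lay wholly above, where 6.65% of all genes did. All 11 had positive differences, with a median log2 difference of 0.67 against -0.00 over all genes. The lead chaperone Hspa5 (BiP), which holds the sensors inactive when bound to them, gave 3770, 4260 and 4564 in transgenic muscle, against 1946, 2142 and 1968 in wild type muscle. That is 2.07-fold with an adjusted p of 0.000263 in limma, with no overlap, and the log2 difference of Xbp1 minus that of Hspa5 was -0.64 (exact permutation p = 0.1, the smallest possible). A dim probe set of Hspa5 gave 0.07. The other called targets were Manf, Pdia6, Herpud1, Calr and Hsp90b1, at 2.38-fold to 1.47-fold. Dimmer kept probe sets of Herpud1, Calr and Hsp90b1 were also higher without overlap but did not pass, at adjusted p of 0.0570 to 0.142 in limma. Creld2, Sdf2l1 and Hyou1 gave 1.59-fold, 1.58-fold and 1.42-fold without overlap, with adjusted p of 0.177, 0.242 and 0.252 in limma. The dimmer kept probe sets of Hyou1 overlapped and disagreed in sign, at log2 differences of 0.25 and -0.30. Pdia4 and Sel1l had the smallest log2 differences of the list, at 0.15 and 0.14, with adjusted p of 0.921 and 0.745 in limma. The called targets of this list and the next, 7 in all, were higher in both rounds, by 0.53 to 1.25 in round 1 and 0.61 to 1.25 in round 2, and passed with the round as a block. None of the 7 passed without the intensity trend of the variances. Calr had adjusted p of 0.110, 0.134 and 0.0698 when wild type arrays 1, 2 and 3 were left out in turn, and Hsp90b1 had 0.0594 without wild type array 1. The list was written with earlier results of these data known, so its direction is not independent evidence.

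Of 11 listed targets of XBP1, 1 was called as higher, where 0.124% of all genes were. The called target was Dnajb9, a co-chaperone of BiP that also restrains IRE1. It gave 1687, 1943 and 1711 in transgenic muscle, against 1120, 1142 and 1067 in wild type muscle, or 1.59-fold with an adjusted p of 0.00729 in limma. The median over the 11 was 0.22 and 9 were positive. Before adjustment 6 of the 11 had a p under 0.05 in the higher direction and 0 in the lower, where 3.91% and 4.24% of all genes did. On the brightest probe sets the transgenic arrays lay wholly above for 6 and wholly below for 1, Edem1. Over all genes these shares were 6.65% and 7.59%. Ssr3, a subunit of the translocon-associated complex, gave 1.25-fold with an adjusted p of 0.263 in limma, and Sec61a1, the translocon channel, 1.19-fold with 0.593. The other kept probe sets of Sec61a1 overlapped and differed in sign, with log2 differences from -0.08 to 0.17. The other kept probe set of Ssr3 gave 1.51-fold without overlap. Edem1, a lectin of degradation and a standard XBP1 target, had the lowest value, at -0.24 on its brightest probe set. The means there were 165 ± 9.55 in transgenic and 198 ± 17.3 in wild type muscle (SD, n = 3 each). Its other kept probe set had the opposite sign, at 0.13, with overlap and an adjusted p of 0.867 in limma. Of 5 transcripts that IRE1 is known to cut in mouse cells, 4 were measured and 0 were called. On the brightest probe set of each gene the log2 differences ran from -0.02 to 0.07, with Col6a1, a collagen VI chain, at the top. The probe sets of Pdgfrb, a receptor of platelet-derived growth factor, disagreed. Its brightest gave -0.00, while the dimmer one gave -0.56, from 80.4 ± 14.3 in transgenic and 125 ± 4.69 in wild type muscle (SD, n = 3 each), without overlap and with an adjusted p of 0.313 in limma.

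Of 24 listed targets of ATF4 and CHOP, 20 had a kept probe set and 0 were called by limma, while an unadjusted p under 0.05 was met by 3 with higher and 2 with lower signal, against 3.91% and 4.24% of all genes. Their median was 0.10, with 14 positive and 6 negative; it was 0.16 without transgenic array 1, 0.041 without transgenic array 3 and 0.0044 in hybridisation round 1 alone. The smallest p belonged to Psat1, an enzyme of serine synthesis, with 199, 209 and 231 in transgenic muscle, against 132, 128 and 139 in wild type muscle. This was 1.53-fold without overlap and with an adjusted p of 0.0995. Mthfd2, a mitochondrial folate enzyme, followed at 1.49-fold with an adjusted p of 0.290, from 127 ± 8.75 in transgenic and 80.3 ± 11.7 in wild type muscle (SD, n = 3 each). The other kept probe set of each overlapped, at 1.23-fold for Psat1 and 1.13-fold for Mthfd2. For Vldlr, a lipoprotein receptor, the dimmer kept probe sets gave log2 differences from -0.32 to 0.12. Its brightest gave 0.771-fold with an adjusted p of 0.535 in limma. The classical marker Asns, asparagine synthetase, gave 1.12-fold with 0.810, and Atf3, a stress-induced factor, 1.24-fold with 0.688.

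Among 18 other regulators, 16 had a kept probe set, 0 were called by limma and 2 were higher at an unadjusted p under 0.05, where 3.91% of all genes were. Their median was 0.14, but 0.026 without wild type array 3 and 0.014 in hybridisation round 1 alone. The first was Eif2ak1, the haem-regulated kinase of eIF2 alpha. It gave 387, 422 and 494 in transgenic muscle, against 339, 270 and 357 in wild type muscle, or 1.33-fold with an adjusted p of 0.389 in limma. Its other kept probe sets overlapped, at log2 differences of 0.16 and -0.07. The second was Tmbim6, a membrane protein of the endoplasmic reticulum that restrains IRE1, at 1.16-fold with an adjusted p of 0.635 in limma. Rtcb, the ligase that joins the Xbp1 exons after IRE1 has cut, gave 1.15-fold with 0.655.

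**Figure D4:**
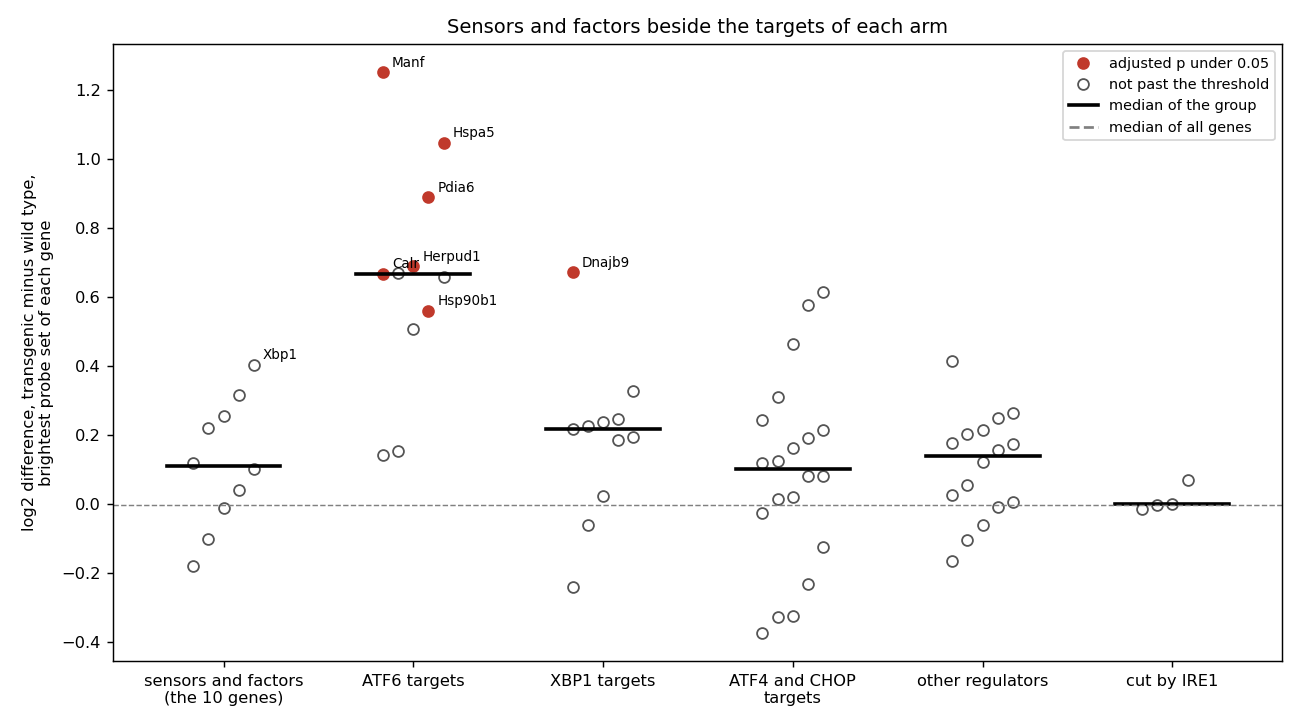
Log2 difference (transgenic minus wild type, vertical axis) of the brightest kept probe set of each gene, for the 10 sensors and factors and for the listed targets and regulators; filled red points passed an adjusted p of 0.05, black bars are group medians and the dashed line is the median of all genes. The ATF6 targets have a median of 0.67 with 6 called, against 0.11 with 0 called for the 10 sensors and factors.

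The genes whose pattern over the 6 arrays was most like that of Xbp1 were sought among 7923 genes with a mean signal of at least 100. For 1437223_s_at the highest Pearson correlations were those of Manf at 0.986, Gfpt1 at 0.983, Dnajb9 at 0.983, Hyou1 at 0.982 and Hspa5 at 0.981, and 20 genes exceeded 0.95. Gfpt1 is the first enzyme of the hexosamine pathway, and the other 4 are in the target lists above. For 1420886_a_at they were Mcfd2 at 0.998, Sec11a at 0.993, Mrpl36 at 0.991, Arpc2 at 0.989 and Ufc1 at 0.982, with 47 genes above 0.95. The 5 genes named for one probe set include none of the 5 named for the other. These correlations describe 6 arrays that share the difference between genotypes.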

How the data were processed

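Each of 6 Affymetrix Mouse430_2 arrays gave a linear signal per probe set. The authors deposited these intensity values, and GCOS 1.1.1 is the software that the submitters' processing notes name; its algorithm is not given there. On every array the deposited intensity had the same mean, 150.0, after trimming 2% at each end, which hides any change common to most transcripts. The deposited run information, of other content than expression, gave hybridisation round and fluidics module.

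The 64 control rows were left out, and signals were analysed as log2(signal + 16) with no further normalization. With limma 3.58.1 (R 4.3.3), a linear model of genotype alone was run with an intensity trend and two-sided tests over 27022 kept probe sets of 45037, at a threshold of 0.05. p-values measure the spread between pools. Precision is limited by having 3 arrays a genotype, with a median half-width of 0.37 for the 95% interval on the log2 scale.

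Symbols came from the platform annotation, updated through gene identifiers to RefSeq, assembly GRCm38.p6; 34741 of 34945 single-symbol probe sets matched. Apart from the filter and the choice of the brightest probe set of each gene, signals of different probe sets were not ranked against each other. The members and lists were chosen with earlier results of these data known. Named genes were all members, called list members, list members with the smallest p, and the 5 genes most like each of the 2 member probe sets with the smallest p. Some others (Creld2, Sdf2l1, Hyou1, Pdia4, Sel1l, Edem1, Asns, Atf3) were named after their values were seen. List genes without a single-symbol probe set were not analysed here. Alternatives changed offset, normalization, filter, variance model, weights, blocks and arrays. Figures were drawn with matplotlib 3.10.9.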

Additional observations from a re-analysis of the deposited data

How the results depend on the processing

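With 3 pools a genotype, the brightest Xbp1 probe set, at a log2 difference of 0.40, lay near the threshold (limma, adjusted p = 0.0959). A larger difference did not come near it where the arrays spread more, as for Atf6 1453288_at at 0.49 (limma, adjusted p = 0.675). Of 391 values of the member probe sets under 20 alternatives, 376 kept their direction and their side of the threshold. Hybridisation round 1 alone was added after the data were seen.

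No member probe set passed as reported, 1 passed with the round as a block and 3 with the module as a random block. These were Xbp1 1420886_a_at, at 0.40 with the round and 0.42 with the module as block, and, with the module only, 1420011_s_at and 1437223_s_at. Leaving out single arrays moved 1420886_a_at between 0.35 and 0.45, with 0 member probe sets called each time. Of the 7 called targets, 6 passed with no filter (all but Calr, adjusted p = 0.0679), 6 in round 1 alone (all but Hsp90b1, 0.0539) and 0 with no intensity trend, at adjusted p of 0.289 to 0.417. The sign turned, with no call on either side, in 11 cases, whose cause was not tested. Trib3 1426065_a_at gave 0.0066 with offset 64, 0.033 with quantile normalization and 0.037 with equal array medians, and -0.20 to 0.31 when single arrays were left out, turning without wild type 2 (0.13) and without transgenic 1 (0.31). Trib3 1456225_x_at gave -0.021 with the module block and -0.14 to 0.22 when single arrays were left out, turning without wild type 2. Atf5 gave -0.23 to 0.085 in that way, turning without wild type 1 (0.076) or transgenic 2 (0.085), and Ern1 1437119_at -0.0022 to 0.27, turning without wild type 1. Ddit3 1443897_at gave -0.029 in round 1 alone.

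The median of the brightest probe sets moved by more than the spread between arrays for the ATF6 arm in round 1 alone, at 0.079, and for the PERK arm when single arrays were left out, at 0.0079 to 0.13. The median of the other regulators was 0.078 with offset 64. The count over all probe sets was 33 as reported, 50 with equal array medians, 17 with no filter, 1 without the intensity trend and 297 with the module block, whose correlation was -0.44. It was 18 to 39 when single arrays were left out, with 19 when wild type 1 and 18 when wild type 2 was missing.

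The replicate numbers of the titles were not used to pair the arrays in the reported fit. Same-numbered deviations correlated at 0.00, 0.06 and 0.05, and differently numbered ones at -0.08 to 0.02. Replicate 3 of each genotype made up hybridisation round 2, so the numbers follow the rounds in part. These values do not settle whether the numbers pair the arrays. With the replicate block 36 probe sets passed, and 0 of the members.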
